A study of Mus musculus with 38 samples.

Results

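The mitochondrial ribosomal protein genes were taken as all table entries whose symbol begins with Mrpl or Mrps followed by a digit, with pseudogenes left out. The rule found 75 of 21705 genes, 46 with Mrpl and 29 with Mrps symbols, and it used no measured value. RNAseq levels were available for all 75 genes in 38 mouse libraries of 10 groups. Cells came from 3 lines, each grown from a single renal tumour, so that line and genotype cannot be told apart. MYC-2983 cells carry Ksp-rtTA and Tet-O-MYC. VM-3055 cells carry KspCreERT2, floxed Vhl on both alleles, Ksp-rtTA and Tet-O-Myc. VIM-3039 cells carry the VM alleles and a germline loss of Ink4a/Arf on both alleles. The Ksp (Cadherin-16) promoter drives rtTA and the Cre in kidney epithelium. All 3 lines were kept in doxycycline (Dox), which switches the Tet-O transgene on, and were then plated in the absence of Dox or at 2 µg per ml and collected 24 h later, with 4 libraries per group. MYC, VM and VIM tumours gave 3 libraries each, from mice fed Dox chow and, for VM and VIM, first given tamoxifen. Libraries 2 and 3 of the MYC tumours come from the same mouse, number 2983, so this group holds 2 animals. Normal kidney was from 5 wild-type mice given vehicle, of which 2 are titled B6 and 3 KT. Ages were not in the labels used here, and the line numbers of VM and VIM cells are those of the paper.

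The mitochondrial ribosome translates the few proteins that mitochondrial DNA encodes, which are subunits of the respiratory chain and the ATP synthase. Its RNAs come from mitochondrial DNA, whereas all of its proteins are encoded in the nucleus, made in the cytosol and imported. Part of these proteins descend from those of bacterial ribosomes, and part are found only in mitochondria. MYC is known as an activator of ribosome biogenesis and of nuclear genes for mitochondria. Tetracyclines, the class that Dox belongs to, bind bacterial ribosomes and can also slow translation in mitochondria. No Dox-treated line without a Tet-O transgene was among the groups, so an effect of the drug and an effect of the transgene cannot be told apart in any comparison of cells.

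Of the 75 genes, 48 encode proteins of the large and 26 of the small subunit. In the classes used here, 46 have a bacterial counterpart (30 in the large and 16 in the small subunit) and 28 are specific to mitochondria (18 and 10). Mrps18a and Mrps18b are counted as specific to mitochondria, although both descend from bacterial S18. Mrps30 and Mrps18a have small-subunit symbols but encode proteins of the large subunit. Mrps36 encodes a component of the oxoglutarate dehydrogenase complex and was kept because the rule takes symbols. The genes lie on 17 chromosomes. In the NCBIM37 annotation (the same assembly as mm9, which the files use) the exons of 25 overlap another gene, 5 of them on the same strand and 22 on the other. The library kit keeps strand, but whether counting used it is not given in the sources used here, so values of overlapping genes are less certain. Examples are Mrpl24, which overlaps Rrnad1 on the other strand, and Mrpl33 and Mrps6, which overlap Bre and Slc5a3 on the same strand. For 4 genes (Mrpl23, Mrpl27, Mrpl48 and Mrps36) a pseudogene copy is annotated that could take or give reads.

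Promoter windows from RefSeq, from 250 bases before to 50 after a transcription start, were matched by symbol for 66 of the 75 genes (72 windows). They were searched on both strands for 3 exact words. CACGTG is the E-box that MYC with MAX can bind. GCGCATG is part of the motif bound by NRF1, a regulator of nuclear genes for mitochondria, and CCGGAAG is the core bound by ETS factors such as GABP. The E-box word was in 9.72% of the windows of these genes and in 7.15% of all 32851 windows in the table. Its 7 windows belong to only 5 of the 66 genes, so the 9.72% counts some genes more than once. The NRF1 word was in 11.1% against 3.91%, with 8 windows of 8 genes. The ETS word was in 31.9% against 8.86%, with 23 windows of 23 genes. Shares by gene were not computed over the whole table. A match describes the letters of a window and is neither a binding site nor a cause. The 5 genes with the E-box word are shown, since the transgene encodes a factor that can bind it, each with 60 bases of mm9 5′ to 3′ on the gene's strand and the word in capitals. In Mrps18c the capitals also mark CTTCCGG, the ETS word read on the other strand. The E-box word was absent from the windows of Mrpl12, the gene with the largest rise with Dox at a measurable level, and Mrpl24, a gene that fell with Dox in VM-3055 and VIM-3039 cells, and 80 bases of each are shown for comparison.
Mrpl2, chr17:46783012-46783071, plus strand: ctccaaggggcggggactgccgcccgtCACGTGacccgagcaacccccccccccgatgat
Mrpl20, chr4:155176927-155176986, plus strand: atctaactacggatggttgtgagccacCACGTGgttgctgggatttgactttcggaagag
Mrpl36, chr13:73468387-73468446, plus strand: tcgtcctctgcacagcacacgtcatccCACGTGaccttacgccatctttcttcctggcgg
Mrpl37, chr4:106739601-106739660, minus strand: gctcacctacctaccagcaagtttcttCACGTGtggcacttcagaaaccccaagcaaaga
Mrps18c, chr5:101227588-101227647, plus strand: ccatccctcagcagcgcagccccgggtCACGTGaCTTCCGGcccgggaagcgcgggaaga
Mrpl12, chr11:120345831-120345910, plus strand: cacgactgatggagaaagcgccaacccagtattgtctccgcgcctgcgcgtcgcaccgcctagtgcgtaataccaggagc
Mrpl24, chr3:87723346-87723425, plus strand: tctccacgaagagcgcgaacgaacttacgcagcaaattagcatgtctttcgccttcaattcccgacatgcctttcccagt

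Values are given in units of the deposited table, which the authors scaled to an upper quartile of 1000. The libraries hold 8.22 to 36.6 M estimated reads, of which 40659 to 150692 fall on the 75 genes. A level of 3 reads, 1.16 to 5.65 units depending on the library, was taken as the floor of detection, and it covers counting error only. In every library 74 of the 75 genes were above it. The exception was Mrpl23, a large-subunit gene, which was at 0 in all 4 VIM-3039 libraries without Dox and in 4 of the 5 kidneys and reached its highest values, 20.7 and 20.2, in 2 of the 3 VIM tumours. The Myc row, Vhl and Cdkn2a (the Ink4a/Arf locus) served as a check of the labels. Vhl was low in VM-3055 (10.3 to 38.8) and VIM-3039 cells (8.3 to 24.9) against 433 to 543 in MYC-2983 cells. Cdkn2a was low in VIM-3039 cells (25 to 41) against 3473 to 5701 in VM-3055 cells. In tissue Vhl was at 40.2 to 79.9 units in VM, 219 to 312 in VIM and 468 to 560 in MYC tumours and 612 to 772 in kidney. Cdkn2a was at 3392 to 4347 in VM and 30.1 to 95.5 in VIM tumours and at 0 to 3.80 in kidney. It did not separate VIM from MYC tumours, with a log2 difference of −2.18 (limma, adjusted p = 0.318). Replicate 3 of the MYC tumours lay within the VIM range, as given below for mouse 2983. Against kidney, the difference in Vhl was −1.45 on the log2 scale in VIM tumours (adjusted p = 0.00012) and −3.72 in VM tumours, and Cdkn2a was 4.57 higher in VIM tumours (adjusted p = 0.000297). The libraries labelled VIM tumours thus held more Vhl than VM tumours in every case and more Cdkn2a than any kidney. The share of other cells in these tumours was not measured. The Myc row was lower with Dox in all 3 lines, by 1.44, 1.83 and 1.96 on the log2 scale, and the labels do not say whether transgene reads count toward it. The row therefore does not show whether the transgene was on.

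The 75 genes added up to more RNA with Dox in each line (the plot of the summed level by library). The sum was 78268 ± 520 units (SD, n = 4) with Dox and 56672 ± 581 without it in MYC-2983 cells. In VM-3055 cells it was 68113 ± 1551 with and 48142 ± 2083 without Dox, and in VIM-3039 cells 71106 ± 2032 and 46285 ± 641. The 2 groups of each line did not overlap. As a share of all estimated reads the genes took 0.561% with and 0.370% without Dox in MYC-2983, 0.537% and 0.356% in VM-3055, and 0.548% and 0.330% in VIM-3039 cells.

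In tissue the sums were further apart. VIM tumours held 136287, 97925 and 184222 units, VM tumours 113578, 90197 and 108247, and MYC tumours 77957, 66686 and 70358. Normal kidney held 106965 and 94943 units in the B6 mice and 80898, 74553 and 68733 in the KT mice. All 3 VM and all 3 VIM tumours thus lay above the KT kidneys, and the MYC tumours lay within their range except for replicate 2, which was below it. VM tumour replicate 2 and all MYC tumours lay below both B6 kidneys, and VIM tumour replicate 2 lay between them. Over all 5 kidneys the VM and VIM sums therefore overlapped those of kidney. As a share of all estimated reads the means were 0.857% in VIM, 0.713% in VM and 0.506% in MYC tumours and 0.432% in kidney, so MYC tumours were lower than kidney in units and higher as a share. In bulk samples fewer cells of a type and less RNA per cell cannot be told apart.

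**Figure D1:**
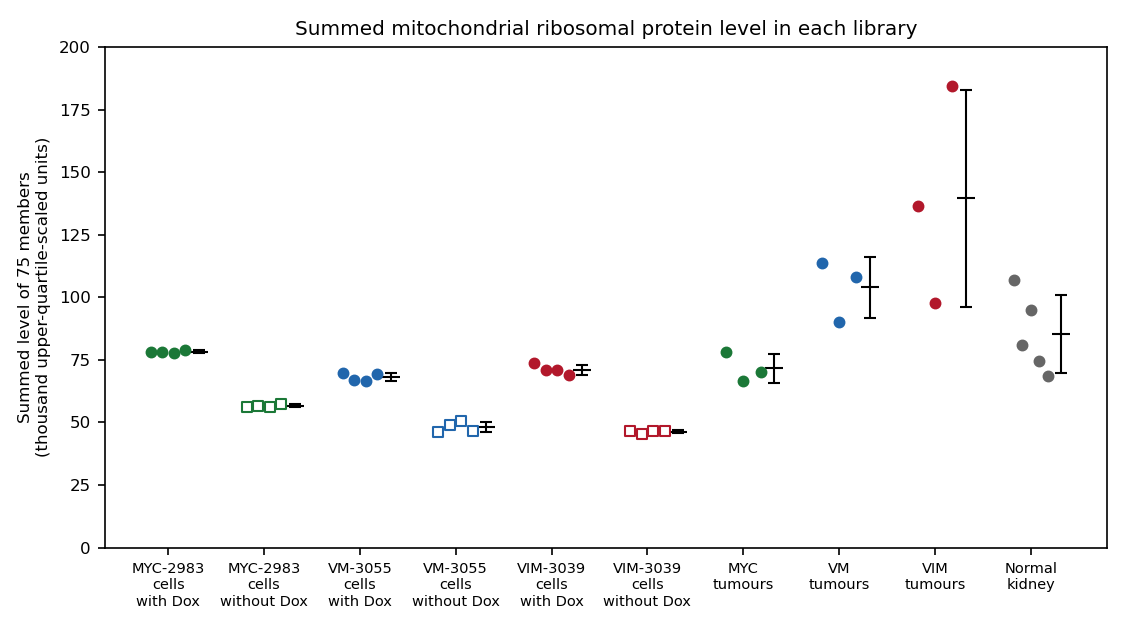
Summed level of the 75 mitochondrial ribosomal protein genes (vertical axis, units of the deposited table) in the 10 groups. Each point is a library, open squares are cells without Dox, and the bar gives the mean ± SD. The groups of each cell line with and without Dox do not overlap, and VIM tumours spread from 97925 to 184222.

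By group mean, 59 of the 75 genes were highest in VIM tumours, 7 in kidney, 5 in MYC-2983 cells with Dox and 3 in VM tumours. The lowest group was VM-3055 or VIM-3039 cells without Dox for 28 genes each and MYC-2983 cells without Dox for 10. These counts were not made over all genes, so they do not show what is particular to the set. The range over the 10 group means had a median of 1.66 on the log2 scale and ran from 0.79 to 3.70. To rank genes, levels were divided by the length of the longest annotated transcript, so the ranking also depends on the annotation. Mrpl12 then led in kidney with 3701 ± 986 units per kb (SD, n = 5), followed by Mrpl42, Mrpl20 and Mrps21 with 3182, 3158 and 2977. In VM-3055 cells with Dox, Mrpl20, Mrpl12 and Mrpl42 led with 2115, 2036 and 1964 units per kb. Mrpl12 encodes the counterpart of bacterial L7/L12, the stalk where translation factors dock, which is present in several copies per ribosome.

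**Figure D2:**
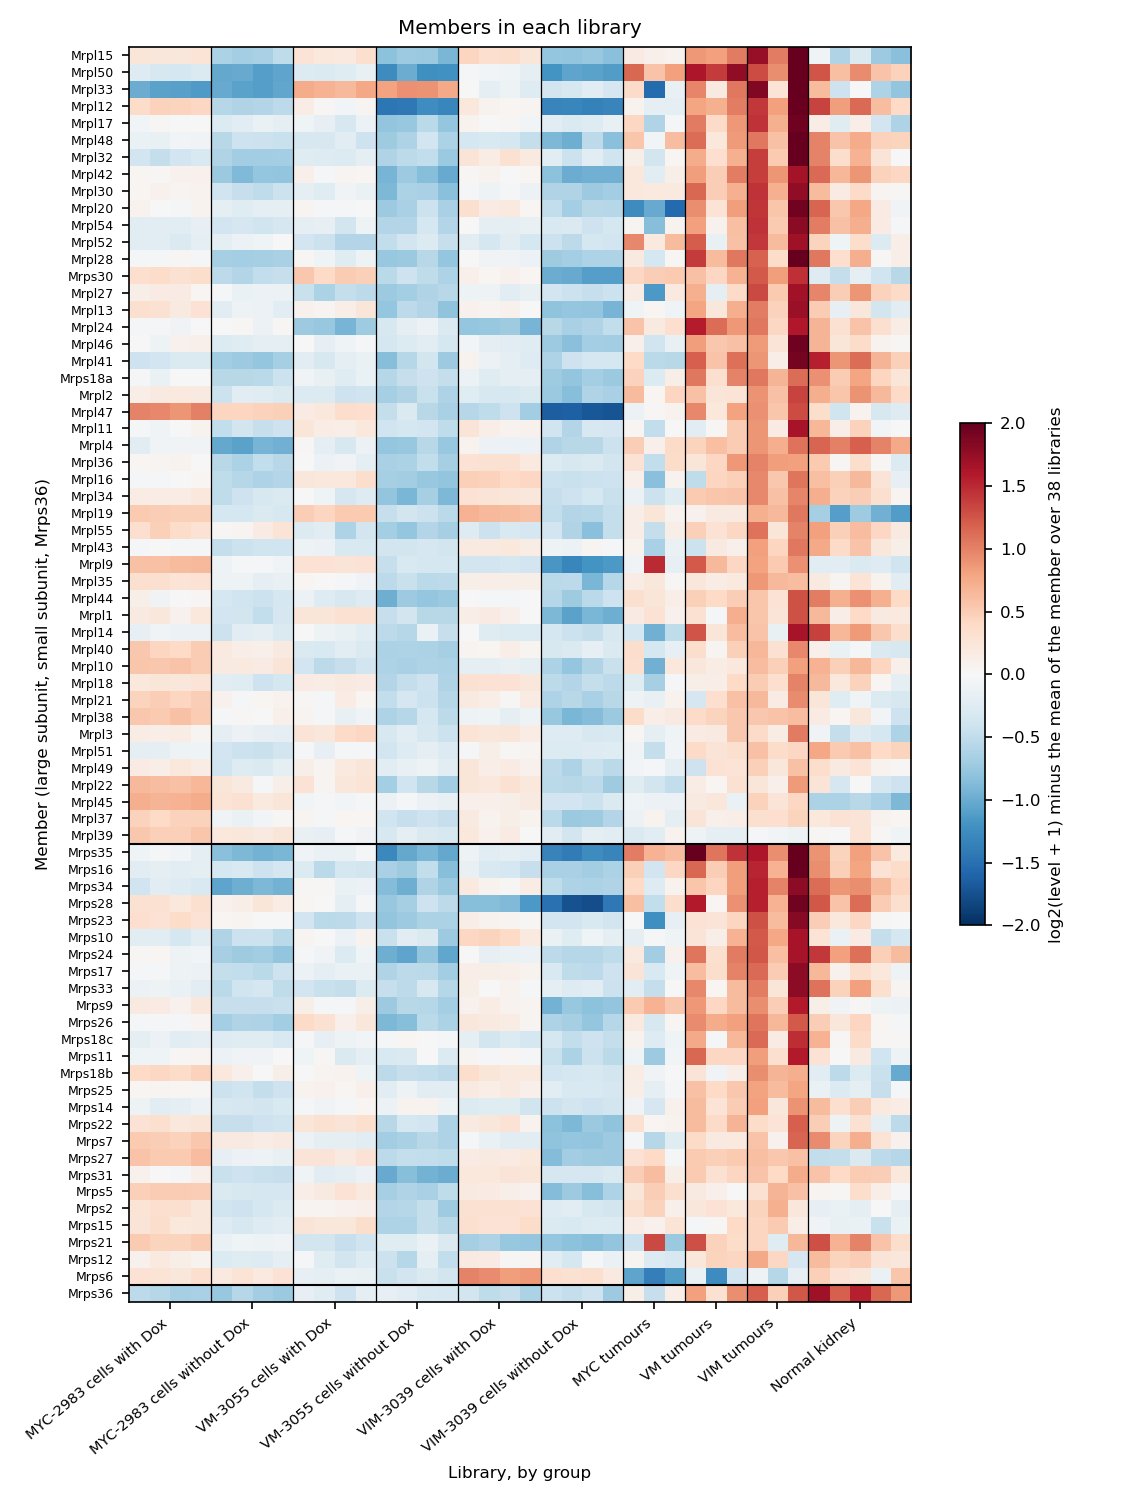
Level of 74 mitochondrial ribosomal protein genes in the 38 libraries, coloured by log2(level + 1) minus the mean of that gene over all libraries. Genes are grouped by subunit and sorted by their level in VIM tumours, and Mrpl23 is left out because it is at or near the floor. The colours stop at 2 in both directions. Cells without Dox form the lowest blocks and VIM tumours the highest.

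The first comparison asked what changed with Dox in each line. Most of the genes rose in each line, and most rises were under 1 on the log2 scale. In MYC-2983 cells 68 of the 75 rose and 1 fell (limma, adjusted p under 0.05), where 31.5% of all genes tested rose and 44.0% fell. In VM-3055 cells 63 rose and 3 fell, against 26.1% and 47.7% of all genes. In VIM-3039 cells 73 rose and 1 fell, against 31.1% and 44.2%. The median change was 0.44, 0.50 and 0.56 on the log2 scale (1.36-, 1.42- and 1.48-fold) in the MYC, VM and VIM lines, beside medians of −0.13, −0.26 and −0.15 over all genes tested. The 4 libraries with Dox lay wholly above the 4 without for 67, 57 and 68 genes, against 29.5%, 23.8% and 28.9% of all genes. Few rises were over 1 on the log2 scale, at 1, 2 and 10 genes against 4.49%, 5.92% and 7.67% of all genes, and the 1 in MYC-2983 cells was Mrpl23, near the floor.

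TMM rescaling raised the median of all genes by 0.12, 0.21 and 0.14 in the 3 lines. With it 74, 71 and 73 of the 75 genes rose and 0, 1 and 0 fell. Relative to the median of all genes tested, the median of the 75 was 0.58, 0.76 and 0.72 higher as deposited and 0.59, 0.78 and 0.73 with TMM.

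**Figure D3:**
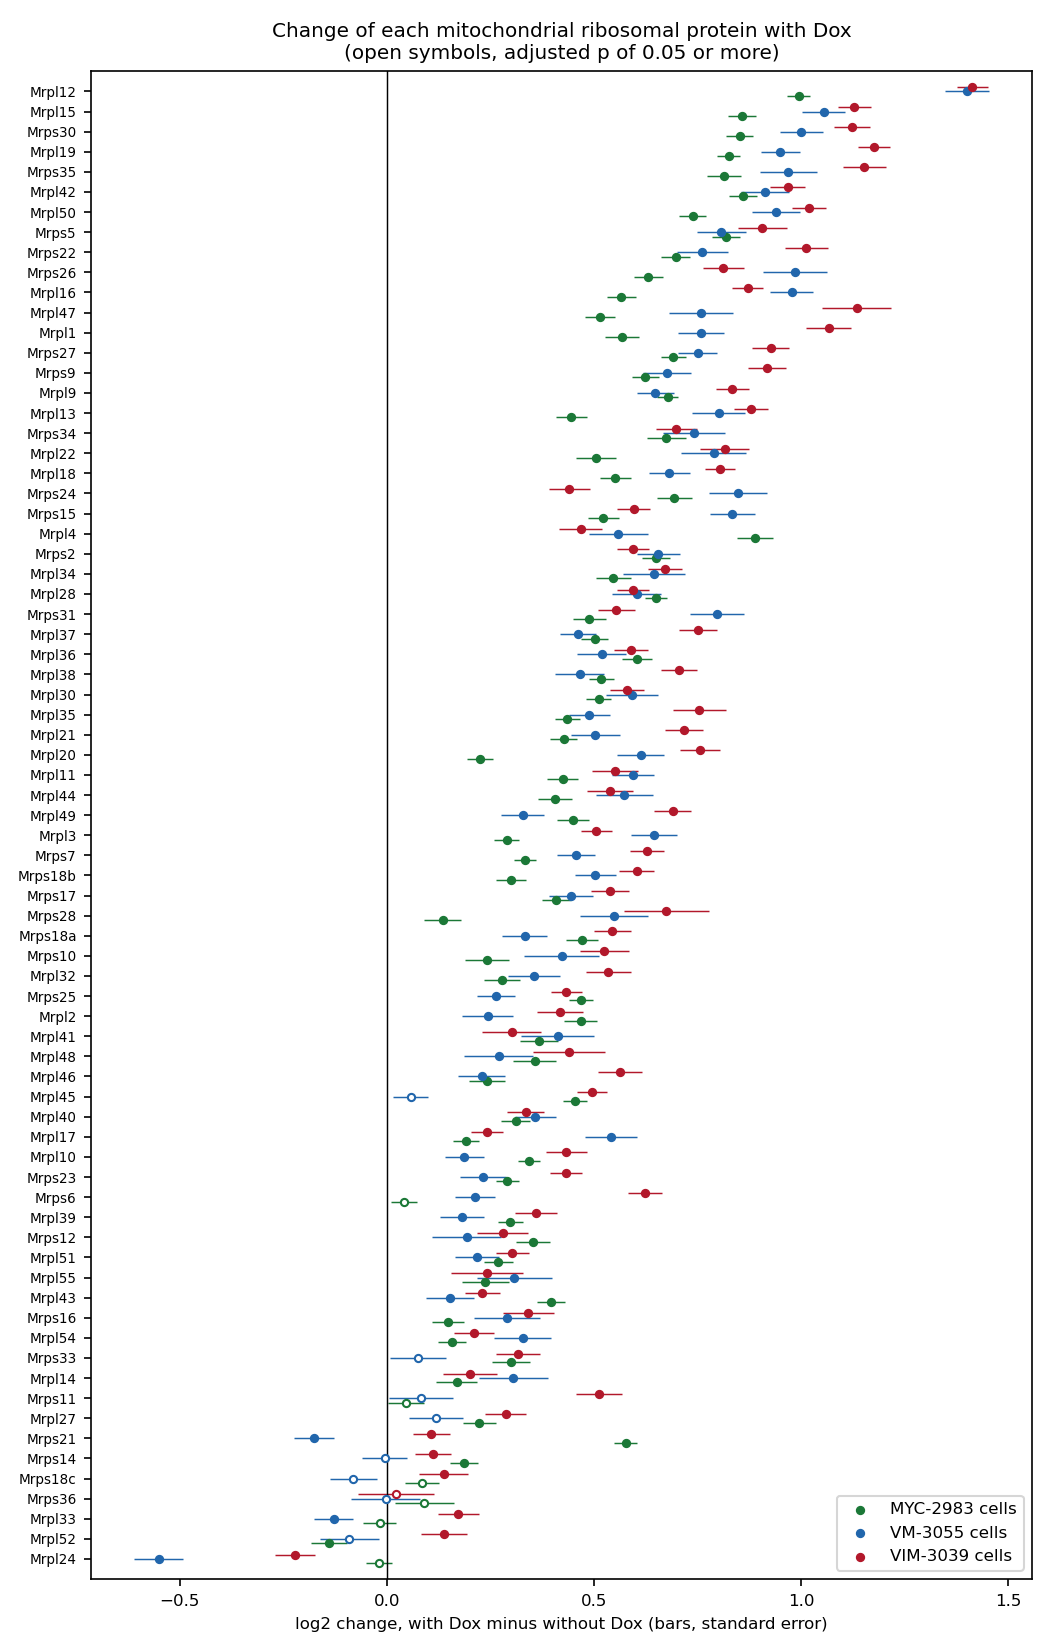
Change with Dox (log2 of the level with Dox over that without, horizontal axis) of each of 74 mitochondrial ribosomal protein genes in the MYC, VM and VIM lines, with Mrpl23 left out. Mrpl12 has the largest rises and Mrpl24 the largest falls in VM-3055 and VIM-3039 cells.

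Mrpl12 had the largest rise in every line, leaving aside Mrpl23 near the floor. MYC-2983 cells held 3360, 3558, 3528 and 3454 units with Dox and 1745, 1702, 1737 and 1795 without. VM-3055 cells held 2866, 2646, 2508 and 2696 with and 950, 967, 1091 and 1052 without. VIM-3039 cells held 2995, 2717, 2671 and 2685 with and 1043, 1050, 1016 and 1042 without. No library with Dox came near those without, and the change in Mrpl12 was 0.99 ± 0.03 (SE, adjusted p = 3.21e-16), 1.40 ± 0.05 (1.19e-13) and 1.41 ± 0.04 (1.36e-18) on the log2 scale in the MYC, VM and VIM lines.

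Across the 3 lines, 62 genes rose in all, where 22.5% of the genes tested in all 3 lines did so, and 7 rose in 2 lines, 4 in 1 line and 2 in none. The 7 that rose by over 0.75 on the log2 scale in each line were Mrpl12, Mrpl15, Mrpl19, Mrpl42, Mrps5, Mrps30 and Mrps35, chosen after their values were seen. Mrpl15 and Mrpl19 have bacterial counterparts in the large subunit, and Mrps30 is a large-subunit protein found only in mitochondria. In VM-3055 cells Mrps30 was at 1397, 1272, 1377 and 1351 units with Dox and 666, 725, 678 and 630 without. It rose 1.80-fold in MYC-2983 and 2.18-fold in VIM-3039 cells. On the log2 scale the rises in the 3 lines were, for Mrpl15, 0.86, 1.05 and 1.13 and, for Mrpl19, 0.83, 0.95 and 1.18. Mrpl4 (uL4, at the protein exit tunnel in bacteria) rose by 0.89 in MYC-2983 cells, where it was among the 3 largest rises, and by 0.56 and 0.47 in VM-3055 and VIM-3039 cells.

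Genes named by the place of their protein in the ribosome come next. Around the stalk, Mrpl10, which holds the L7/L12 proteins, rose by 0.34, 0.19 and 0.43 in the MYC, VM and VIM lines, and Mrpl11, at the stalk base, by 0.42, 0.59 and 0.55. Mrpl3, near the peptidyl transferase centre, rose by 0.29, 0.65 and 0.51. Among mitochondria-specific proteins of the large subunit, Mrpl41 rose by 0.37, 0.41 and 0.30 and Mrpl44 by 0.41, 0.57 and 0.54. In the small subunit, Mrps12, at the decoding centre, rose by 0.35, 0.19 and 0.28, Mrps7 by 0.33, 0.46 and 0.63, Mrps2 by 0.65, 0.66 and 0.59 and Mrps16 by 0.15, 0.29 and 0.34. The mitochondria-specific Mrps22 rose by 0.70, 0.76 and 1.01 and Mrps34 by 0.67, 0.74 and 0.70. By subunit, the median change was 0.45, 0.51 and 0.57 for the large and 0.44, 0.48 and 0.57 for the small subunit.

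The 3 descendants of bacterial S18 differed in size of change. Mrps18a rose by 0.47, 0.33 and 0.54 and Mrps18b by 0.30, 0.50 and 0.60 in the MYC, VM and VIM lines. For Mrps18c the changes were 0.09 (adjusted p = 0.0728), −0.08 (adjusted p = 0.207) and a rise of 0.14. It is 1 of the 5 genes with the E-box word. The other 4 rose in all 3 lines, as did 62 of the 75 genes of the set. Mrpl2 rose by 0.47, 0.24 and 0.42, Mrpl20 by 0.22, 0.61 and 0.76, Mrpl36 by 0.60, 0.52 and 0.59 and Mrpl37 by 0.50, 0.46 and 0.75.

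Few genes stood outside this pattern. Mrpl24 held 802, 792, 696 and 814 units with Dox and 1064, 1162, 1228 and 1092 without in VM-3055 cells, with all 4 libraries lower with Dox. It fell by 0.55 there (SE 0.06, adjusted p = 1.52e-07) and by 0.22 in VIM-3039 cells (adjusted p = 0.000365), and its change in MYC-2983 cells was −0.02 (adjusted p = 0.614). Mrpl24 is the counterpart of bacterial L24, an early assembly protein. The fall in VIM-3039 cells was −0.06 (adjusted p = 0.211) with TMM.

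Mrps21, which encodes a small-subunit protein, rose by 0.58 in MYC-2983 cells from 1104 to 1152 units without Dox to 1645 to 1723 with it. In VM-3055 cells it fell by 0.18, and in VIM-3039 cells it rose by 0.11. Mrpl33 fell by 0.13 in VM-3055 cells and Mrpl52 by 0.14 in MYC-2983 cells. With TMM the changes of Mrps21 and Mrpl33 in VM-3055 cells became 0.06 and 0.11, and that of Mrpl52 was −0.01. Mrps36, which is not part of the ribosome, had changes of 0.09, −0.00 and 0.02 that did not pass the test.

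With Dox, 31.5%, 26.1% and 31.1% of all genes tested rose in the MYC, VM and VIM lines and 44.0%, 47.7% and 44.2% fell. The genes for proteins of the cytosolic ribosome, which translates nuclear messages, rose as the mitochondrial set did. Of 77 tested, 72, 74 and 74 rose with Dox in the MYC, VM and VIM lines, with median changes of 0.45, 0.70 and 0.71 beside 0.44, 0.50 and 0.56 for the mitochondrial set. The difference between the sets was not tested. The 7 genes for proteins of the mitochondrial ribosome with other symbols rose in all 3 lines. Among them Ptcd3, for a small-subunit protein, did so by 0.88, 1.33 and 1.43. Of 13 mitochondrial translation factors 12, 9 and 9 rose and 0, 2 and 0 fell, led in VM-3055 cells by Gfm1 and Tufm, the elongation factors, at 0.89 and 0.87. Of 25 genes for assembly and rRNA modification 18, 15 and 18 rose and 2, 4 and 1 fell, with Noa1, a GTPase, at 1.47, 1.86 and 1.56.

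Most genes around mitochondrial DNA and import also rose. Of all genes tested, 31.5%, 26.1% and 31.1% rose in the MYC, VM and VIM lines. All 8 tested genes of mitochondrial DNA maintenance and transcription rose in MYC-2983 and VIM-3039 cells and 7 in VM-3055 cells. Among them Tfam, which packs mitochondrial DNA, rose by 0.82, 1.13 and 1.15. Of 9 tested genes of mitochondrial RNA processing 8, 7 and 8 rose, and Elac2, which trims tRNA ends, did so by 1.19, 1.95 and 1.89. Of 22 import genes 18, 17 and 18 rose, and Tomm5, of the outer-membrane pore, did so by 1.35, 1.96 and 1.91. Among 9 regulators of mitochondrial genes, which include the Myc row that was lower with Dox, 5, 4 and 8 rose. Ppargc1b, a coactivator, rose by 1.54, 1.57 and 2.13, and Ppargc1a, its paralog, fell in VM-3055 cells. In the same cells the summed level of 7 fibroblast genes was lower with Dox, at 156 to 212 units against 835 to 985 in MYC-2983 cells, 85.7 to 110 against 630 to 709 in VM-3055 and 21.8 to 30.8 against 130 to 175 in VIM-3039. That of 6 kidney epithelium genes was lower too, at 11562 to 13064 against 17439 to 18352 in MYC-2983, 5740 to 5865 against 13159 to 13606 in VM-3055 and 5938 to 6073 against 10358 to 11091 in VIM-3039. That of 7 leukocyte genes was 218 to 254 against 440 to 469, 362 to 405 against 944 to 1013 and 287 to 314 against 370 to 445 in the same order. The part of these shifts in the results was not tested.

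**Figure D4:**
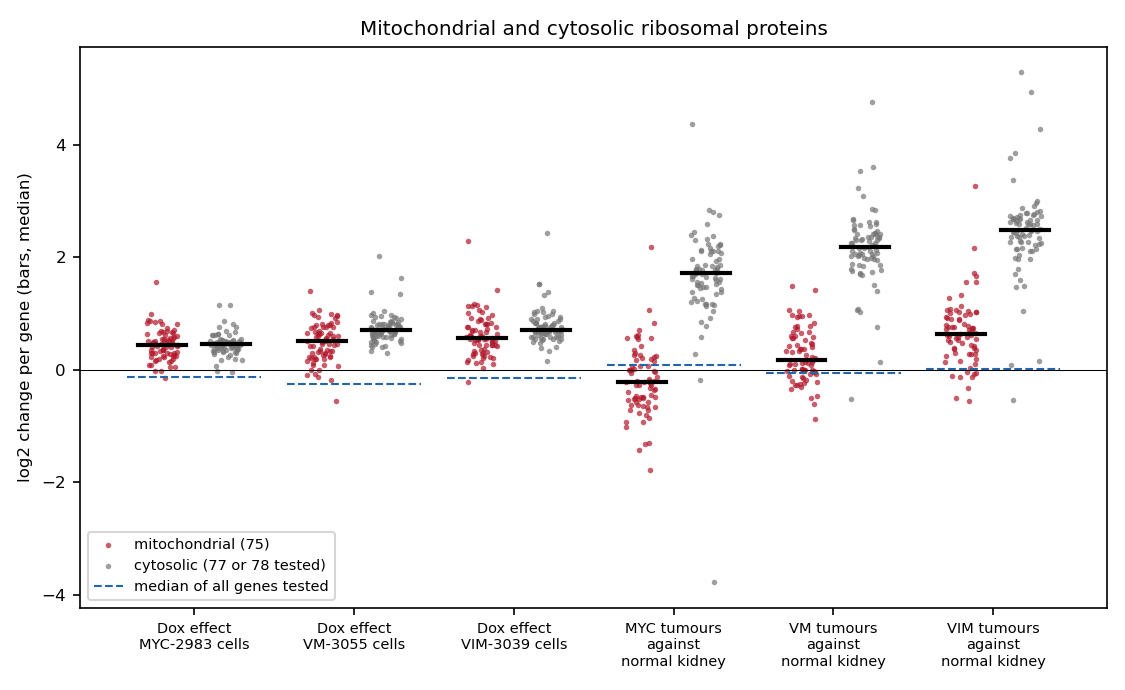
Change of each ribosomal protein gene (log2, vertical axis) with Dox in the 3 lines and in the 3 tumour genotypes against normal kidney. Red points are the 75 mitochondrial and grey points the cytosolic ribosomal proteins (77 tested in cells and 78 in tissue), black bars are their medians, and the dashed blue line is the median of all genes tested. With Dox both sets lie above 0, and against kidney the cytosolic set is far higher than the mitochondrial set.

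The second comparison asked whether the change with Dox differed between the lines, as a line by Dox interaction in limma. Between VIM-3039 and VM-3055 cells it differed for 31 of the 75 genes, 27 with a larger and 4 with a smaller change in VIM-3039, where 22.8% and 10.5% of all genes did so. The median difference was 0.12, and that of all genes tested was 0.10. The largest was in Mrpl23, near the floor (1.65, adjusted p = 0.0375). Leaving it aside, the difference was largest for Mrpl45 (0.44), Mrps11 (0.43) and Mrps6 (0.41) and lowest for Mrps24 (−0.41), Mrpl17 (−0.30) and Mrps31 (−0.24). Mrps6, the counterpart of bacterial S6, whose exons overlap Slc5a3 on the same strand, is shown as an example of a large difference. It was at 2231, 2151, 2000 and 2057 units with and 1422, 1388, 1404 and 1266 without Dox in VIM-3039 cells. In VM-3055 cells it was at 1000, 988, 1028 and 1006 with and 822, 858, 921 and 873 without Dox.

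Between VM-3055 and MYC-2983 cells the change differed for 31 genes, 20 larger and 11 smaller in VM-3055, where 17.5% and 28.7% of all genes did so. The split depended on scaling, with 43 and 3 after TMM and 14 and 14 in a voom fit to reads scaled to the library total. Leaving aside Mrpl23 (−0.92, adjusted p = 0.345), the largest differences were in Mrps28, Mrpl16 and Mrpl12 (0.41 each), Mrps21 (−0.75), Mrpl24 (−0.53) and Mrpl45 (−0.40). Between VIM-3039 and MYC-2983 cells it differed for 41 genes, 36 larger and 5 smaller in VIM-3039, against 23.9% and 23.6% of all genes. Leaving aside Mrpl23 (0.73, adjusted p = 0.358), Mrpl47 (0.62), Mrps6 (0.58) and Mrps28 (0.54) led, with Mrps21 (−0.47), Mrpl4 (−0.42) and Mrps24 (−0.25) at the other end. These 3 interactions share libraries.

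The third comparison set the lines with Dox against each other. Titles number the VM-3055 and VIM-3039 libraries in a single series and the MYC-2983 libraries in a separate one. Whether they were processed together is not stated. Against MYC-2983 cells, the line and any difference in processing therefore cannot be told apart. Genes of the set differed in both directions. VIM-3039 cells were higher than VM-3055 cells in 28 genes and lower in 10, against 35.1% and 32.4% of all genes (28 and 17 with TMM, 28 and 18 with voom). VM-3055 cells were higher than MYC-2983 cells in 13 and lower in 41, against 26.7% and 49.9%, and the split became 28 and 26 with TMM, 24 and 28 with quantile normalization and 27 and 29 with voom. VIM-3039 cells were higher than MYC-2983 cells in 22 and lower in 31, against 26.4% and 49.7%, and this became 36 and 22, 33 and 24 and 32 and 25 in the same order. The 2 comparisons with MYC-2983 cells therefore had no stable direction.

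Single genes differed more than the set. Mrpl33, a small protein of the large subunit, was at 1627 to 1768 units in VM-3055, 862 to 1034 in VIM-3039 and 472 to 519 in MYC-2983 cells with Dox, with no overlap between any of them. It was 1.78 higher in VM-3055 than in MYC-2983 cells (SE 0.04, adjusted p = 1.04e-13). Mrps6 was 1.07 higher in VIM-3039 than in VM-3055 cells (SE 0.04, adjusted p = 3.45e-13). Mrpl47, the counterpart of bacterial L29 at the exit tunnel, was at 717 to 780 units in MYC-2983, 433 to 497 in VM-3055 and 238 to 292 in VIM-3039 cells. It was 1.51 lower in VIM-3039 than in MYC-2983 cells, Mrps28 was 1.22 lower and Mrps21 1.19 lower.

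Differences between the lines varied with the chromosome on which a gene lies, though not on every chromosome. The 5 genes of the set on chromosome 3, among them Mrpl9, Mrpl24, Mrpl47 and Mrps21, had a median difference of −1.19 between VIM-3039 and MYC-2983 cells, beside −0.76 over 513 genes of that chromosome. The same medians were −0.70 and −0.23 between VM-3055 and MYC-2983 cells and −0.65 and −0.53 between VIM-3039 and VM-3055 cells. On chromosome 11, which holds 10 of the genes, 9 were lower in VM-3055 and 9 in VIM-3039 than in MYC-2983 cells, with medians of −0.66 and −0.49 beside −0.52 and −0.44 over the chromosome. On chromosome 8 the 2 genes of the set had medians of 0.40 beside 0.33 over the chromosome between VIM-3039 and VM-3055 cells and −0.27 beside −0.56 between VM-3055 and MYC-2983 cells. Between VIM-3039 and MYC-2983 cells they went against their chromosome, at 0.14 beside −0.23. Over 74 genes, those of a chromosome sharing its value, the difference of a gene and the median of its chromosome had r = 0.606 for VIM-3039 against VM-3055, 0.627 for VM-3055 against MYC-2983 and 0.716 for VIM-3039 against MYC-2983. These are descriptions, and copy number was not measured.

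**Figure D5:**
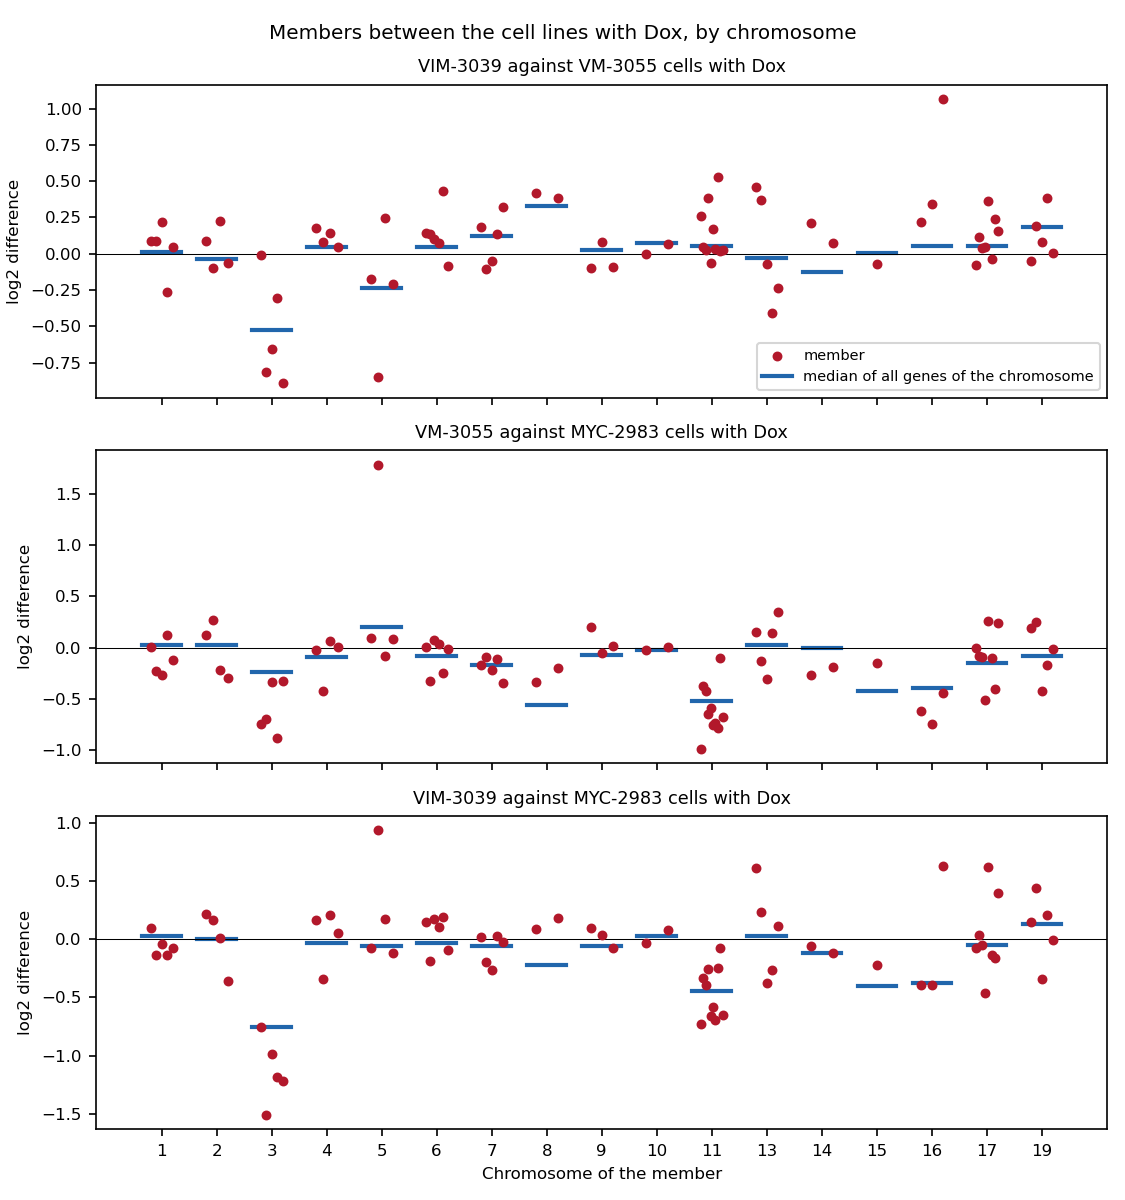
Difference between lines with Dox (log2, vertical axis) of each of 74 mitochondrial ribosomal protein genes, by chromosome. Lines give the median of the genes of that chromosome with a mean of at least 50 units. Mrpl23 is left out. Most genes of the set on chromosome 3 lie low in each panel. The rest of that chromosome is low in the 2 panels with VIM-3039 cells and only slightly so between VM-3055 and MYC-2983 cells. Genes on chromosome 11 lie low with the rest of it against MYC-2983 cells, but not between VIM-3039 and VM-3055 cells.

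The fourth comparison set the tumours against normal kidney, which is made up of nephron segments that the tumours largely lack. The summed level of 8 proximal tubule genes was 287583 to 318365 units in kidney and 3172 to 18608 in tumours, and that of 6 loop, distal tubule and collecting duct genes was 73178 to 162506 against 2.47 to 6442. All 6 kidney epithelium genes were detected in every group. The sum of 7 leukocyte genes was 1277 to 2254 units in kidney and 2186 to 15237 in tumours, and that of 5 endothelial genes 3253 to 5579 and 192 to 1949. Proximal tubule cells are rich in mitochondria. The part of these shifts in the results was not tested.

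Of the mitochondrial ribosomal protein genes that passed the test, more were lower than higher in MYC tumours and nearly all were higher in VIM tumours, where 41 of the 75 did not pass. In MYC tumours 9 of 75 were higher and 20 lower than in kidney (limma, adjusted p under 0.05), against 27.3% and 24.2% of all genes, with a median change of −0.22 beside 0.08 over all genes. In VM tumours 23 were higher and 3 lower, against 25.7% and 29.0%, with a median of 0.16 beside −0.05. In VIM tumours 33 were higher and 1 lower, against 25.5% and 26.2%, with a median of 0.64 beside 0.01. Rises of over 1 on the log2 scale were seen in 2, 3 and 17 genes in MYC, VM and VIM tumours, against 18.7%, 17.3% and 18.9% of all genes. Mrpl23, near the floor, is among the 2 in MYC and the 17 in VIM tumours.

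Scaling and the choice of kidneys moved these counts. In the voom fit scaled to the library total, which raised the median of all genes by 0.44, 0.40 and 0.31, 27 genes were higher and 5 lower in MYC, 45 and 0 in VM and 63 and 0 in VIM tumours, and the MYC median became 0.20. With TMM the split in MYC tumours was 6 and 23. Relative to the median of all genes the MYC, VM and VIM tumours stood at −0.30, 0.22 and 0.64 as deposited and −0.32, 0.25 and 0.62 with voom. Against the 2 B6 kidneys alone the splits were 4 and 27 in MYC and 7 and 5 in VM tumours, with medians of −0.47 and −0.07, and 10 genes were called in VIM tumours. Against the 3 KT kidneys alone they were 9 and 8 in MYC, with a median of −0.07, while 30 genes were called in VM and 38 in VIM tumours. Without kidney replicate 2 or 3 the count in MYC tumours was 16 or 17 in place of 29, and without VIM tumour replicate 2 the count in VIM tumours was 53 in place of 34.

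Mrpl15 and Mrpl19 were higher in all 3 genotypes. Mrpl15 was at 745 to 1261 units in kidney (median 877), at 1479, 1415 and 1388 in MYC, 2414, 2347 and 2732 in VM and 4416, 2695 and 6150 in VIM tumours, with every tumour above every kidney. It was 0.62 (adjusted p = 0.0389), 1.41 (0.000134) and 2.16 (0.000142) higher in MYC, VM and VIM tumours, the last a 4.47-fold difference. Mrpl19 was 1.05, 1.06 and 1.71 higher and Mrps30 0.83, 0.94 and 1.55, and both were above every kidney in every tumour. Mrps27, a small-subunit protein found only in mitochondria, was 0.71 higher in MYC tumours, Mrpl9 was 1.04 higher in VM tumours and Mrpl17 was 1.56 higher in VIM tumours.

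Mrps6 was lower in all 3 genotypes. It was at 1018 to 1645 units in kidney (median 1376), 538, 434 and 514 in MYC, 1024, 468 and 863 in VM and 1040, 755 and 996 in VIM tumours. The difference was −1.44 (SE 0.19, adjusted p = 0.000518), −0.87 (0.0152) and −0.57 (0.031) in MYC, VM and VIM tumours, though the highest tumours of the last 2 overlapped the lowest kidney. Mrps36, of the oxoglutarate dehydrogenase complex in the tricarboxylic acid cycle, was 1.32 lower in MYC and 0.61 lower in VM tumours, and its difference in VIM tumours was −0.32 (adjusted p = 0.303). Mrpl4 was 0.66 lower in MYC and 0.51 lower in VM tumours, although it was higher with Dox in all 3 lines.

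Mrpl20 and Mrpl12 were lower in MYC tumours than in kidney. Mrpl20 was at 1509 to 3540 units in kidney and at 662, 784 and 538 in MYC tumours, which all lay below every kidney. It was 1.78 lower in MYC tumours (SE 0.30, adjusted p = 0.00162), while VM tumours held 3015, 1912 and 2820 units and VIM tumours 4262, 2332 and 6017. Mrpl12 was at 3416 to 6621 units in kidney and 2735, 2272 and 2275 in MYC tumours, a difference of −0.92 (SE 0.26, adjusted p = 0.0171). VM tumours held 4494, 4239 and 5296 units and VIM tumours 6917, 4586 and 10186, with differences of −0.02 (adjusted p = 0.932) and 0.54 (adjusted p = 0.15). Also lower in MYC tumours were Mrpl41 by 1.01, Mrps7 by 0.72, Mrps34 by 0.64, Mrps12 by 0.54 and Mrpl44 by 0.50, while Mrps2 was 0.43 higher. These values hold for the deposited scaling, where 20 genes of the set were lower in MYC tumours, and with voom only 5 were. In VIM tumours Mrpl33 was 1.66, Mrps18b 1.27, Mrps16 0.94, Mrpl3 0.88, Mrpl36 0.75, Mrps34 0.65 and Mrps2 0.59 higher.

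Of all genes tested, 27.3%, 25.7% and 25.5% were higher in MYC, VM and VIM tumours than in kidney. The shares of lower genes were 24.2%, 29.0% and 26.2%. Counts close to these shares do not set a list apart. The genes for cytosolic ribosomal proteins behaved differently from the mitochondrial set in tissue. Of 78 tested, 71, 75 and 74 were higher in MYC, VM and VIM tumours than in kidney, with medians of 1.71, 2.19 and 2.48 beside −0.22, 0.16 and 0.64 for the mitochondrial set. Among 13 mitochondrial translation factors 1 was higher and 4 lower in MYC, 0 and 5 in VM, and 1 and 0 in VIM tumours, with Taco1 1.21 lower in MYC tumours. Of 22 import genes 4, 9 and 12 were higher and 5, 1 and 1 lower, and Dnajc19, of the inner-membrane motor, was 2.05 lower in MYC tumours. Of 25 assembly genes 7, 6 and 13 were higher and 4, 5 and 2 lower, with Noa1 at 1.60, 1.75 and 1.74. Of 9 RNA processing genes 6, 5 and 7 were higher and none lower. Of 8 genes of mitochondrial DNA maintenance and transcription 3, 4 and 5 were higher and none lower, led in MYC tumours by Peo1, the helicase, at 1.30. Of the 7 genes for mitochondrial ribosomal proteins with other symbols 1, 5 and 5 were higher and 2, 0 and 0 lower. Among 9 regulators 3, 4 and 4 were higher and 1, 2 and 1 lower, and the Myc row counts among the higher in each genotype. Pprc1, a coactivator, was 2.50 higher and Esrra, a nuclear receptor for genes of oxidative metabolism, 1.72 lower in MYC tumours.

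The last comparison set the tumour genotypes against each other. The order of the sums was VIM, VM and MYC, but no gene of the set passed the test in any pair. With limma and an adjusted p under 0.05, 0 of the 75 were called between VIM and VM, VM and MYC, and VIM and MYC tumours, where 0.249%, 0.00% and 0.00613% of all genes were. At an unadjusted p under 0.05 the counts were 10, 22 and 38, all higher in the first-named genotype, where 7.27%, 5.13% and 7.41% of all genes were. With voom the counts were again 0 after adjustment. Groups of 2 and 3 animals give this test little power, so a count of 0 does not show that the genotypes are alike. With all tissue libraries in one fit 0, 1 and 12 were called. The median differences were 0.37, 0.49 and 0.80, beside 0.08, −0.13 and −0.06 over all genes, and 69, 68 and 75 of the 75 genes were higher in the first-named genotype. The smallest adjusted p was 0.287, 0.138 and 0.158, the last 2 with Mrpl20 at 1.95 ± 0.25 (SE) between VM and MYC and 2.57 ± 0.41 between VIM and MYC tumours.

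The libraries of mouse 2983 differed in some of the genes. Mrps21 was at 3019 units in replicate 2 and 720 in replicate 3, Mrpl9 at 4674 and 1486, and Mrpl33 at 353 and 927. In all, 7 of the 75 genes differed by over 1 on the log2 scale between these 2 libraries, while 9 did so between replicate 2 and replicate 1, from another mouse, and 0 between replicate 3 and replicate 1. Replicate 2 was thus the library that stood apart from both others. Cdkn2a was at 2872 units in replicate 2 and 59.3 in replicate 3. Mrps21 and Mrpl9, both on chromosome 3, were also high in VM tumour replicate 1, at 2936 and 3879 units. The 2 libraries were averaged before the tests.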

How the data were processed

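RNA of 24 cell and 14 tissue libraries was analysed. The authors aligned reads to mm9 with MapSplice, filtered them (Picard 1.64, SAMtools, UBU), estimated abundance with RSEM on UCSC knownGene and scaled each library to its upper quartile, and the deposited signal was used as it stands. Groups were compared with limma 3.58.1 (R 4.3.3) on log2(value + 1), with a trended eBayes and Benjamini-Hochberg adjustment over all genes above 0 in at least 4 fitted libraries (2 for tissue). Fold changes of low genes are understated on this scale. All tests were two-sided and tested on simulated data. The libraries of mouse 2983 were averaged. Nothing states that cell libraries were separate cultures, so their p-values may measure technical spread. Named genes were 20 chosen by role and, per comparison, the 3 largest rises and falls called without overlap at a mean of at least 50 units. The genes and lists were chosen with earlier results of these data known. Reads were estimated from the most frequent low value of each library, and the values were not accepted as whole reads in every library, so a voom fit to recovered reads, added after seeing the data, served as an alternative. Other settings were pseudocounts, filters, TMM, quantile normalization, no moderation, wider fits, the replicate block, B6 or KT kidneys alone and leaving out each library. Replicate numbers of VM-3055 and VIM-3039 cells did not pair libraries, and the check is given at the end. Plots used Python 3.11.15 and matplotlib 3.10.9.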

Additional observations from a re-analysis of the deposited data

Results flagged for a closer look

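A library stood apart from the others of its group by Dixon's test in 7 of 147 groups of values, and chance alone gives about 1 in 20. Mrps18a was at 781.4 units in replicate 2 of MYC-2983 cells with Dox and at 633.3 in replicate 4 without Dox. Mrpl36 was at 560.5 in replicate 3 of VM-3055 cells without Dox and at 902.4 in replicate 4 of VIM-3039 cells with Dox. Mrpl12 was at 2995 in replicate 1 of VIM-3039 cells with Dox, and the summed level was 45335 in replicate 2 of VIM-3039 cells without Dox. Mrps2 was at 1064 in kidney replicate 4.

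The change with Dox differed between VIM-3039 and VM-3055 cells for 31 genes. The difference was 1.65 for Mrpl23, near the floor, and, leaving Mrpl23 aside here and in the other 2 interactions, the largest were 0.44 for Mrpl45, 0.43 for Mrps11, 0.41 for Mrps6, −0.41 for Mrps24, −0.30 for Mrpl17 and −0.24 for Mrps31. Between VM-3055 and MYC-2983 cells it differed for 31 genes, with 0.41 for Mrps28, 0.41 for Mrpl16, 0.41 for Mrpl12, −0.75 for Mrps21, −0.53 for Mrpl24 and −0.40 for Mrpl45. Between VIM-3039 and MYC-2983 cells it differed for 41 genes, with 0.62 for Mrpl47, 0.58 for Mrps6, 0.54 for Mrps28, −0.47 for Mrps21, −0.42 for Mrpl4 and −0.25 for Mrps24.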

How the results depend on the processing

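Counts with Dox (69, 66 and 74 of 75 called) and of the interactions stayed within 1.5 times their value in every setting run. Leaving out 1 library gave 69 to 69, 63 to 65 and 69 to 73 with Dox in the MYC, VM and VIM lines. Against kidney it gave 16 to 34 in MYC, 19 to 29 in VM and 28 to 53 in VIM tumours. In MYC tumours the count of 29 became 16 with no filter, 14 with no moderation, 16 with all tissue in one fit and 17 with KT kidneys only. In VM tumours 26 became 45 with voom and 12 with B6 kidneys only, and in VIM tumours 34 became 63 and 10. Between VM and MYC tumours 1 gene was called with all tissue in one fit or with mouse 2983 not averaged, and between VIM and MYC tumours 12 in one fit. The median reversed for VM-3055 against MYC-2983 cells (0.0076 with TMM), VIM-3039 against MYC-2983 cells (0.0775 with TMM, 0.0532 with quantile normalization, 0.032 with voom) and MYC tumours against kidney (0.20 with voom). With TMM, Mrpl33 and Mrps21 in VM-3055 cells reversed to 0.11 and 0.0593. The cause of these moves was not tested. Of 2562 values for named genes under alternatives, 2417 kept their direction and call, 143 lost the call (111 in tissue) and 2 reversed. Same-numbered libraries correlated at −0.0524 (VM-3055), −0.0080 (VIM-3039) and 0.0035 (between these lines), so the numbers do not pair them. The replicate block gave 63, 74, 31 and 40 calls for Dox in VM-3055, Dox in VIM-3039, their interaction and VIM-3039 against VM-3055. The planned count test was not run, because the values of 9 libraries were not accepted as whole reads. Depth limits Mrpl23, at or near the floor of 3 reads in most libraries.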
